A study of Mus musculus with 48 samples.

Results

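The response of visceral white fat to dietary cystine withdrawal was compared with that of brown fat in mice without Cth, which encodes cystathionine gamma-lyase; this enzyme releases cysteine from cystathionine. The 16 libraries compared, of 48 in the series, were the 4 Cth-/- libraries on the control diet (CTRL, numbers 12 to 15) and the 4 on the cystine-free diet (CysF, numbers 16, 17, 18 and 20) of visceral fat (EFAT) and of brown fat (BAT). All were poly(A) RNA of snap-frozen tissue of male mice fed for 6 days, and the control libraries carry the same deletion as the cystine-free ones. The same contrast in Cth+/+ mice, with 4 libraries in each of its 4 groups, served for comparison. The age, strain and housing of the mice are not in the labels used here, nor whether a number stands for 1 mouse in both depots. The p-values therefore measure a spread between libraries, which was estimated for each gene over all 48 of the series.

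The diet response of a gene is its log2 fold change from the control to the cystine-free diet, and the depot difference is the EFAT response minus the BAT response, given ± SE. Levels are CPM, the counts scaled to a common library size, with library sizes scaled by the trimmed mean of M-values (TMM). A gene was counted when its Benjamini-Hochberg adjusted p was under 0.05 over the 18348 genes tested. Of these, 2976 (16.2%) passed the test of the depot difference, which asks directly whether the 2 depots respond differently. In a fit of the 16 Cth-/- libraries alone, 2076 of 17264 genes passed.

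White adipocytes take up fatty acids released from circulating lipoproteins and store them as triglyceride, which hormone-controlled lipases break down when fuel is needed. Brown adipocytes store triglyceride as well, but burn fatty acids in mitochondria that uncoupling protein 1 lets run without making ATP. Both depots also hold fibroblasts, vessels and immune cells. In tissue samples, fewer cells of a type and less RNA per cell cannot be told apart.

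Library totals ranged from 18.7 M to 46.0 M expected counts. Transcripts of the mitochondrial genome made up 24.7 to 45.7% of the BAT libraries and 4.82 to 14.7% of the EFAT libraries, and Cth had 0 to 6 reads in each. Ucp1, the gene of uncoupling protein 1, lay at 2320 to 10300 CPM in BAT and at 0.0213 to 2.84 CPM in EFAT.

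Some libraries stood apart within their groups. EFAT control libraries 12 and 14 held more RNA of fat storage than control libraries 13 and 15: the summed level of 17 triglyceride assembly genes was 7760 and 7660 CPM against 3900 and 3220 CPM, while the cystine-free libraries lay at 2910 to 4090 CPM. Genes of the epididymis and its epithelium, a neighbouring tissue, summed to 21.6 and 2.02 CPM in EFAT control libraries 12 and 14, to 96.0 and 120 CPM in 13 and 15, to 81.6 and 91.4 CPM in cystine-free libraries 17 and 18, and to 551 and 1650 CPM in 16 and 20. Skeletal muscle genes summed to 960, 1590, 168 and 982 CPM in BAT control libraries 12 to 15 and to 251, 14.7, 112 and 56.2 CPM in the cystine-free ones. Without EFAT libraries 12 and 14 the count of genes past the depot difference fell to 588 of 19255 tested (250 higher, 338 lower in EFAT). The diet response in EFAT then passed for 1705 genes (626 rose, 1079 fell). Without EFAT libraries 16 and 20 the depot difference passed for 2119. All 2976 genes kept the sign of their depot difference without 12 and 14, and 2972 without 16 and 20. The genes were chosen in the full fit, and the reduced fits reuse its other libraries, so kept signs are no separate evidence. Of the 105 genes named here, 41 no longer passed the depot difference without 12 and 14: Dio2, Adrb3, Atf4, Fasn, Acly, Thrsp, Fads2, Acot3, Teddm2, Angptl8, Abhd15, G0s2, Plin1, Mogat2, Agpat2, Agpat3, Gpat4, Dgat1, Odf3l1, Gys2, Clstn3, Acads, Cpt2, Hmgcs1, Ndufs4, Col15a1, Col4a1, Col4a2, Thbs1, Dcn, Dpp4, Thy1, Gss, Pdk4, Slc2a4, Ldha, Fkbp5, Ephx1, Oasl2, Rsad2 and Ighm. Without 16 and 20 there were 14 such genes, of which Slc7a11 and Sema3c are not among the 41. Reads of the gene Gm43512 also divided the libraries into 2 sets that the labels do not name: 3 of 4 cystine-free and 1 of 4 control libraries of EFAT, and 1 of 4 cystine-free and 2 of 4 control libraries of BAT, had at least 0.1 CPM. With this set as a term, 1753 genes passed the depot difference (775 higher, 978 lower in EFAT). With a score of the skeletal muscle genes of BAT as a covariate (the muscle score), 1422 genes passed it (556 higher, 866 lower). The diet response in BAT then passed for 1124 genes (419 rose, 705 fell). The score itself differed between the diets in BAT, so this fit cannot separate muscle from diet there. Counts of gene lists in these fits stand against these lower totals, not against the shares of the full fit. The part that storage genes, neighbouring tissue or the set have in these counts was not tested.

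**Figure D1:**
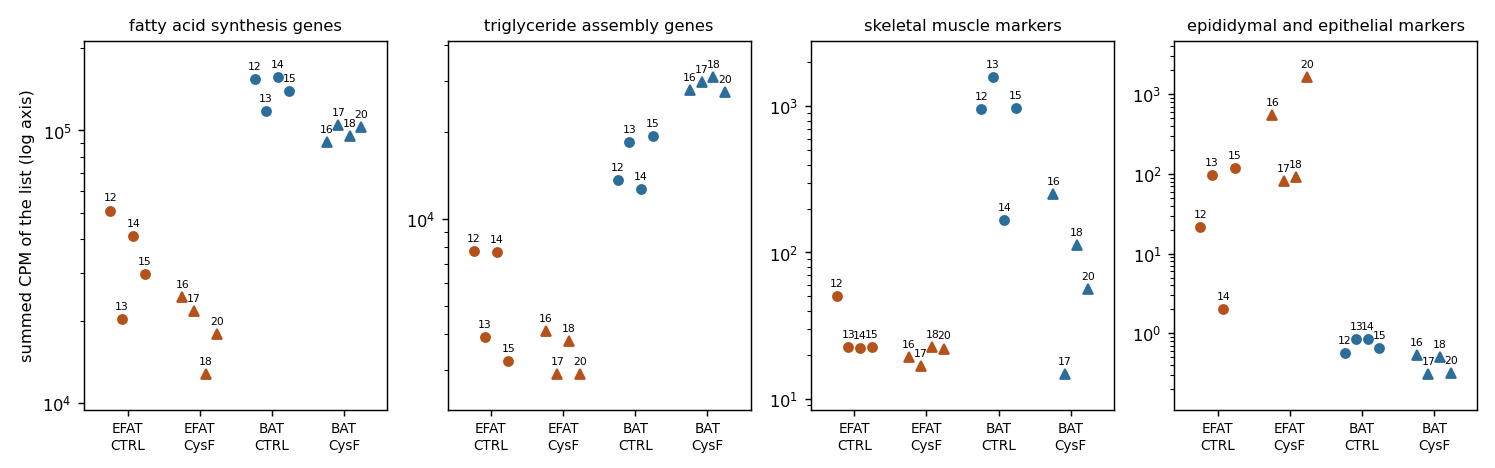
Summed CPM of 4 gene lists in each Cth-/- library (log axis), with library numbers over the points, EFAT in brown, BAT in blue, control libraries as circles and cystine-free ones as triangles. EFAT control libraries 12 and 14 stand above 13 and 15 in triglyceride assembly genes, muscle genes are lower in cystine-free than in control BAT, with the exception of an overlap at control library 14, and EFAT libraries 16 and 20 are highest in epididymal genes.

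Of the 2976 genes, 1337 (7.29% of those tested) had a higher response in EFAT and 1639 (8.93%) a lower one. With TMM within each depot, 1507 were higher and 1419 lower, and in EFAT 2865 genes rose and 2819 fell. The excess of lower over higher genes thus depended on the scaling. In the full fit the diet response itself passed the test for 5660 genes in EFAT (30.8%) and for 2731 in BAT (14.9%). Of all genes tested, 13.5% rose and 17.3% fell in EFAT, and 5.71% rose and 9.17% fell in BAT. Among the genes past the depot difference, 1750 passed in EFAT alone, 662 in BAT alone and 301 in neither depot, while 38 moved in the same direction in both with the larger change in EFAT and 24 with the larger change in BAT. The other 201 genes (1.10% of those tested) passed in each depot with opposite signs: 61 rose in EFAT and fell in BAT (0.332%), and 140 fell in EFAT and rose in BAT (0.763%). In 99 of them (0.540%) the 4 cystine-free and 4 control libraries did not overlap in either depot. Such separation alone was found in 26.1% of all genes tested in EFAT, 18.6% in BAT and 7.32% in both. Responses in the same direction were more frequent: 1175 genes passed in both depots, which is 20.8% of the EFAT calls and 43.0% of the BAT calls, and 974 of these had the same sign (321 rose, 653 fell).

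**Figure D2:**
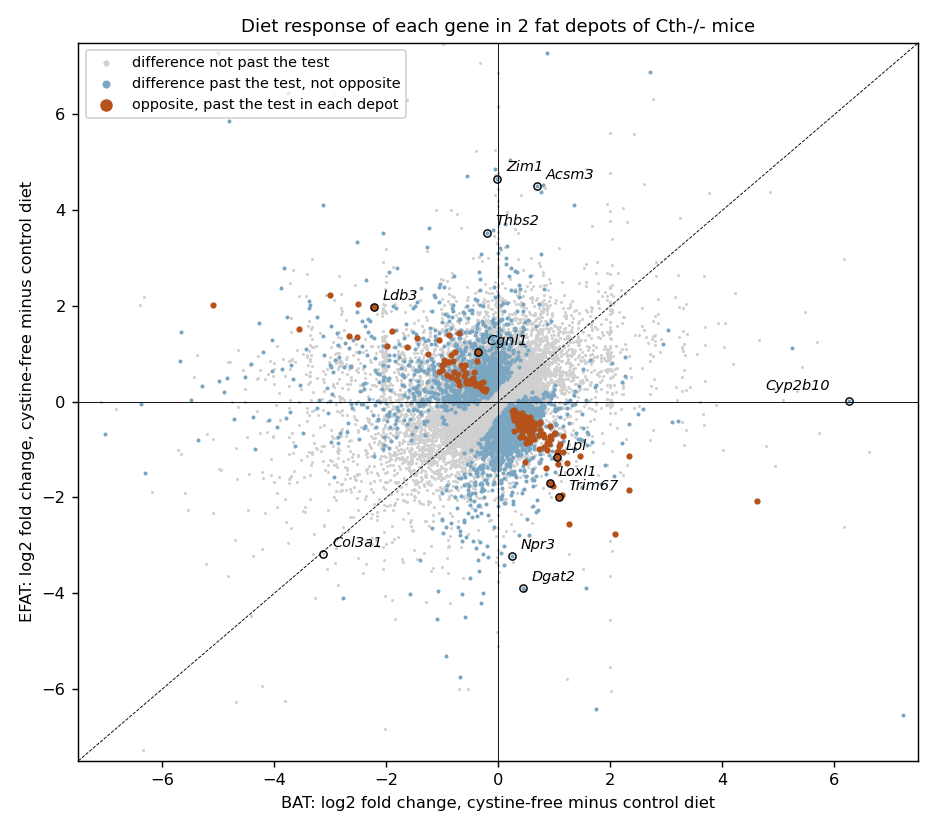
Diet response of each tested gene in EFAT (y axis) against BAT (x axis), both as log2 fold changes in Cth-/- mice, with 11 genes outside the axes. Grey points did not pass the depot difference test, blue points passed it, and the 201 brown points passed it with opposite signs in the 2 depots; Dgat2, Zim1 and Cyp2b10 lie near an axis, moved in 1 depot, and Col3a1 lies on the diagonal.

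Several genes of triglyceride assembly fell in EFAT, several rose in BAT, and 3 of the 17 tested did both (1.10% of all genes tested ran opposite). The list of 17 tested genes holds the route from glycerol 3-phosphate and fatty acids to triglyceride, and related genes such as Mogat2 and Pck1. Of the 17, 9 had a lower response in EFAT (8.93% of all genes tested did) and none a higher one. In EFAT 7 fell (17.3% of all genes tested did) and none rose, and in BAT 6 rose (5.71% of all) and none fell. The median depot difference of the 17 was -0.89, against 0.09 over all genes tested. When EFAT libraries 12 and 14 were left out, 3 of the 17 were lower (338 of 19255 genes tested were), with a median of -0.66. With the library set as a term 6 were lower (978 of 18348). With the muscle score 7 of the 17 were lower (866 of 18348), and in BAT 2 rose (419 of 18348).

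Lpl encodes lipoprotein lipase, the enzyme on capillary walls that frees fatty acids for uptake. Its level in EFAT was 12200, 6990, 12200 and 6740 CPM in the control libraries and 5270, 4890, 3030 and 4010 CPM in the cystine-free ones. In BAT it was 2350, 3220, 2210 and 3540 CPM on the control diet and 5000, 4730, 6590 and 6990 CPM on the cystine-free diet. The groups did not overlap in either depot, so that every cystine-free library lay below the controls in EFAT and above them in BAT. Lpl was named by a rule that asks for this separation, as were Gpd1, Loxl1, Slc7a6 and Trim67. The response was -1.15 ± 0.22 in EFAT and 1.04 ± 0.22 in BAT, a depot difference of -2.19 ± 0.30 (adjusted p = 7.0e-06).

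Gpd1, which makes the glycerol 3-phosphate backbone from a glycolytic intermediate, had 7510, 10300, 6540 and 9960 CPM in BAT control libraries and 18800, 19200, 17200 and 17000 CPM in cystine-free ones. In EFAT it had 1630, 483, 1660 and 483 CPM on the control diet and 407, 452, 419 and 452 CPM on the cystine-free diet. The rise in BAT was thus seen in all 4 libraries, whereas the fall in EFAT was large against libraries 12 and 14 and small against 13 and 15. The depot difference was -2.37 ± 0.42 (adjusted p = 0.00024), with -1.30 ± 0.30 in EFAT and 1.07 ± 0.30 in BAT, and it was -1.24 without EFAT libraries 12 and 14, where it still passed the test.

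Agpat1 and Agpat3 encode acyltransferases that add the second fatty acid. Agpat1 fell by 0.33 ± 0.10 in EFAT and rose by 0.57 ± 0.10 in BAT (depot difference -0.89 ± 0.15), and Agpat3 fell by 0.46 ± 0.14 and rose by 0.47 ± 0.14 (-0.93 ± 0.20). Agpat3 had 173, 140, 191 and 117 CPM in EFAT control and 134, 100, 118 and 97.6 CPM in EFAT cystine-free libraries, which overlap. The BAT libraries had 453, 631, 454 and 575 CPM against 793, 772, 751 and 617 CPM, which overlap at 1 library. Agpat2, an isoform needed for fat storage in adipocytes, fell in EFAT by 2.32 ± 0.32 and had a BAT response of -0.31 ± 0.30. Gpat4, which adds the first fatty acid, rose in BAT by 0.96 ± 0.18 with 0.15 ± 0.17 in EFAT.

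The last step is the esterification of diacylglycerol. Dgat2, one of the 2 enzymes that complete triglyceride, had 3560, 1210, 3300 and 711 CPM in EFAT control libraries and 206, 161, 117 and 110 CPM in cystine-free ones. Its BAT levels were 835, 1090, 814 and 967 CPM and 729, 1460, 1750 and 1080 CPM. The EFAT groups were far apart even against the lower controls 13 and 15, and the BAT groups overlapped. Dgat2 fell by 3.89 ± 0.41 in EFAT with a BAT response of 0.44 ± 0.36 (adjusted p = 0.48), a depot difference of -4.32 ± 0.54 (adjusted p = 9.2e-07) that passed in all 31 alternative fits, between -4.62 and -2.87. Dgat1, the other such enzyme, rose in BAT by 0.71 ± 0.23 (EFAT -0.25 ± 0.23, depot difference -0.95 ± 0.33), and passed in 12 of the 31. Mogat2, an acyltransferase that starts from monoacylglycerol, fell from 6.80 ± 6.67 to 0.121 ± 0.0244 CPM (mean ± SD, n = 4) in EFAT and stood at 0.436 ± 0.113 and 0.260 ± 0.0719 CPM in BAT.

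**Figure D3:**
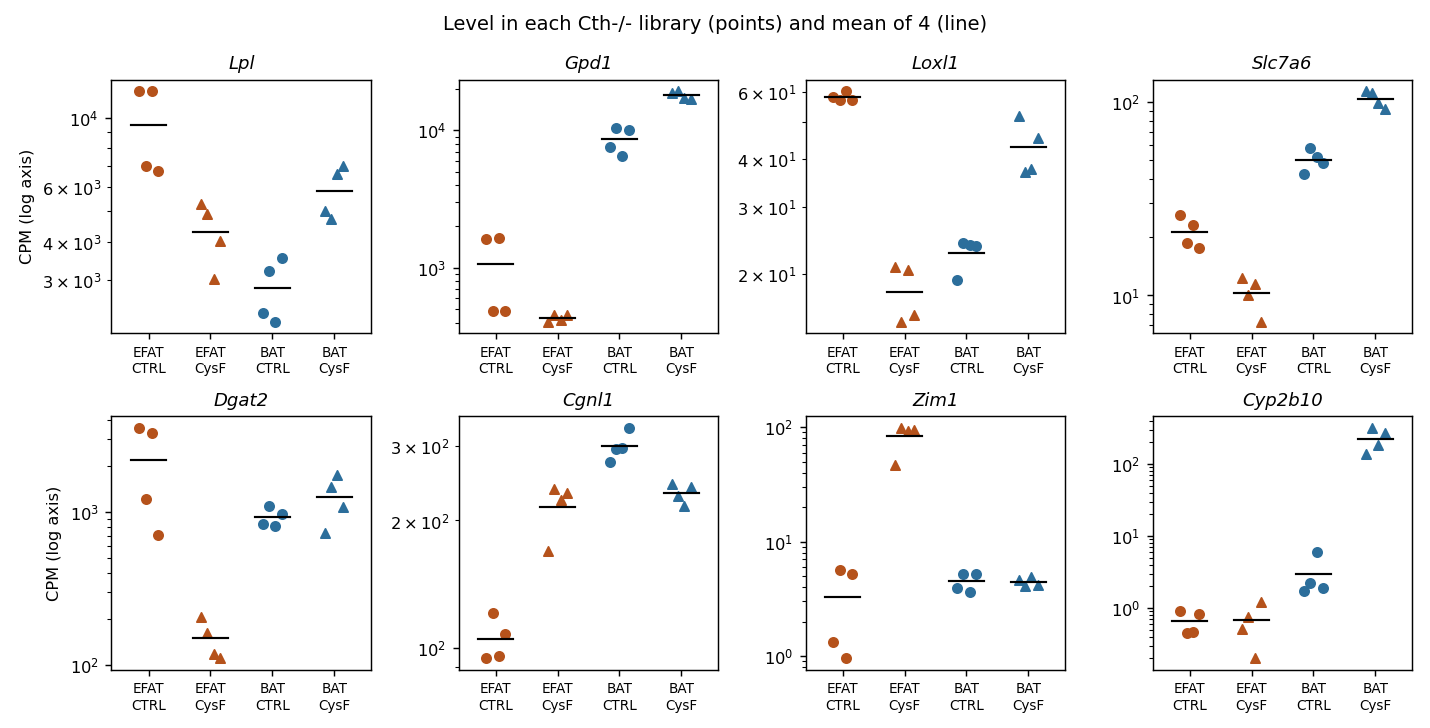
CPM on a log axis of 8 genes in each of the 16 Cth-/- libraries (points, EFAT brown, BAT blue, circles control, triangles cystine-free) with the mean of 4 as a line. Lpl, Gpd1, Loxl1 and Slc7a6 fell in EFAT and rose in BAT, Cgnl1 the reverse, Dgat2 and Zim1 moved in EFAT, and Cyp2b10 moved in BAT.

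In GRCm38 (GENCODE M21) Lpl lies at chr8:68880491-68907448 on the plus strand, Gpd1 at chr15:99717515-99725005 on the plus strand and Dgat2 at chr7:99153658-99182719 on the minus strand. Among 22 lipolysis and lipid droplet genes, 9 had a lower response in EFAT (8.93% of all genes tested did) and none a higher one (median -0.57). In EFAT 9 fell (17.3% of all) and 1 rose, and in BAT 7 rose (5.71% of all) and none fell. Without EFAT libraries 12 and 14, 1 of the 22 passed, with a median of -0.34. With the muscle score 2 of the 22 passed, and in BAT 3 rose. The gene that rose in EFAT was Pnpla2, the first lipase of lipolysis, and it rose in both depots, by 0.80 ± 0.12 in EFAT and 0.59 ± 0.12 in BAT. G0s2, the inhibitor of that lipase, fell in EFAT by 1.40 ± 0.26 and had a BAT response of 0.11 ± 0.25 (depot difference -1.51 ± 0.36). Plin1, the coat protein of the adipocyte droplet, fell in EFAT by 1.06 ± 0.14 (BAT -0.38 ± 0.14). Lipe, the lipase of diacylglycerol, fell in EFAT by 0.44 ± 0.15 with -0.04 ± 0.15 in BAT, and its depot difference of -0.40 ± 0.21 did not pass. Angptl8, a secreted inhibitor of lipoprotein lipase that is induced by feeding, fell in EFAT by 4.00 ± 0.98, with a depot difference of -3.71 ± 1.27. Abhd15, a partner of insulin-controlled lipolysis, had -0.90 ± 0.34 in EFAT and 0.95 ± 0.35 in BAT.

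Fatty acid synthesis split within the list. Of 21 tested genes, 13 fell (17.3% of all genes tested did) and 2 rose in EFAT, and 9 fell (9.17% of all) and none rose in BAT. For the depot difference 5 were higher (7.29% of all) and 4 lower (8.93% of all), with a median of 0.03. The lower ones included Acly, which makes acetyl-CoA from citrate (depot difference -2.28 ± 0.79), Fasn, fatty acid synthase (-1.90 ± 0.64), and Thrsp, a lipogenic regulator (-2.04 ± 0.58). Fasn had 17300, 3240, 16300 and 2020 CPM in EFAT control libraries and 4220, 2590, 621 and 1450 CPM in cystine-free ones, so that controls 13 and 15 lay within the cystine-free range. The BAT levels were 35800, 46600, 41900 and 49500 CPM against 36100, 43200, 37900 and 31000 CPM. With libraries 12 and 14 left out, none of the 4 lower genes passed and the median was 0.86. With the muscle score 4 genes were higher and none lower, and 4 fell in BAT. The higher ones included Fads2, a desaturase of polyunsaturated fatty acids, which fell in BAT and had 0.89 ± 0.36 in EFAT (depot difference 2.09 ± 0.53). Scd1, the main stearoyl desaturase, had -0.35 ± 0.32 in EFAT and -0.80 ± 0.32 in BAT, and Acaca and Elovl6, which fell in EFAT by 1.55 ± 0.38 and 2.02 ± 0.56, did not pass the depot difference.

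Cholesterol synthesis fell in EFAT for 20 of 25 genes (17.3% of all genes tested did), and in BAT for 7 (9.17% of all), with 1 rise. For the depot difference 3 were lower and none higher, among them Hmgcs1 (-1.11 ± 0.30), which catalyses an early step of the pathway. The 3 genes are 12.0% of the list, against 16.2% of all genes tested. Without EFAT libraries 12 and 14, 2 of the 25 fell in EFAT and 0 passed the depot difference. With the muscle score 3 of the 25 fell in BAT. Insig1, a sterol-responsive regulator, fell in both depots, by 2.17 ± 0.39 in EFAT and 1.87 ± 0.39 in BAT.

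Acyl-CoA thioesterases and medium-chain acyl-CoA synthetases, which release or activate fatty acids, included genes that rose in EFAT. Of 15, 7 rose (13.5% of all genes tested did) and 1 fell in EFAT and 2 rose in BAT. In the depot difference 4 were higher (7.29% of all) and 2 lower (8.93% of all), and 1 was higher and none lower without EFAT libraries 12 and 14. With the muscle score 1 was higher and 1 lower. Acsm3, a medium-chain synthetase, had 5.79, 10.5, 9.23 and 5.82 CPM in EFAT control libraries and 93.3, 207, 148 and 261 CPM in cystine-free ones. In BAT it had 143, 148, 175 and 162 CPM and 187, 257, 265 and 303 CPM. The diets did not overlap in either depot, and EFAT cystine-free libraries 17, 18 and 20 lay within the range of the BAT libraries whereas library 16 lay below all of them. The response was 4.50 ± 0.41 in EFAT and 0.69 ± 0.36 in BAT, and the depot difference of 3.81 ± 0.53 (adjusted p = 6.4e-06) passed in all 31 alternative fits. Acot3, a peroxisomal thioesterase, rose in EFAT from 0.0571 ± 0.0727 to 7.34 ± 4.11 CPM and in BAT from 0.0625 ± 0.0765 to 0.528 ± 0.572 CPM (SD, n = 4). Its depot difference of 4.19 ± 1.40 had an adjusted p of 0.038 and passed in 13 of the alternatives.

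Of 72 nuclear genes of oxidative phosphorylation, 11 (15.3%) had a lower response in EFAT and none a higher one, a share near that of all genes. In EFAT 15 fell (17.3% of all genes tested did) and 2 rose, and in BAT none rose and 1 fell. The median depot difference was -0.52, and it was -0.22 with no gene past the test without EFAT libraries 12 and 14. With the muscle score 1 of the 72 passed. Ndufs4, a subunit of complex I, is an example, with 33.2 ± 11.2 and 18.1 ± 5.79 CPM in EFAT and 158 ± 20.9 and 179 ± 38.6 CPM in BAT. None of the 13 mitochondrially encoded transcripts passed in either depot or in the difference by edgeR. Of 28 fatty acid oxidation genes 5 were lower in the depot difference and none higher, which is 17.9% of the list against 16.2% of all genes. The count was 1 without EFAT libraries 12 and 14, and the median went from -0.35 to -0.10. It was 2 genes with the muscle score. Cpt1a and Cpt2, 2 of the carnitine transferases that carry fatty acids into mitochondria, ran opposite. Cpt1a fell by 0.56 ± 0.17 in EFAT and rose by 0.62 ± 0.18 in BAT, and Cpt2 fell by 0.37 ± 0.12 and rose by 0.41 ± 0.12. In BAT, however, Cpt1a had 15.7 to 42.8 CPM, and Cpt1b, another such gene, had 596 to 1300 CPM. The depot difference of Cpt1b did not pass. Acads, which oxidises short chains, fell in EFAT by 0.86 ± 0.25 (BAT 0.37 ± 0.25).

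Of 24 thermogenic genes 2 were higher and 2 lower in the depot difference, a share (16.7%) near that of all genes (16.2%). With a score of the skeletal muscle genes as a covariate none passed, and without EFAT libraries 12 and 14 the counts were 1 and 0. In EFAT 5 rose (13.5% of all genes tested did) and 1 fell, and in BAT 2 rose (5.71% of all) and none fell. Ucp1 had 2670, 4470, 2320 and 4580 CPM in BAT control libraries and 10300, 8590, 7590 and 6800 CPM in cystine-free ones, without overlap. In EFAT it had 0.0229, 0.173, 0.0213 and 2.84 CPM and 0.171, 1.09, 0.0669 and 0.166 CPM, where library 15 was far above the other controls and library 17 above the other cystine-free ones. Its response was 1.24 ± 1.13 in BAT (adjusted p = 0.52) and -1.07 ± 1.69 in EFAT. Both SEs rest on 1 spread estimated for the gene over all 48 libraries, among them EFAT libraries with few reads. In EFAT, control libraries had 1 to 122 reads of Ucp1 and cystine-free ones 2 to 32. The SE in BAT thus does not measure the spread within BAT alone. The depot difference of -2.31 ± 2.02 had an adjusted p of 0.46 and a 95% interval from -6.27 to 1.65. Cox8b, a brown-fat form of a cytochrome oxidase subunit, rose in EFAT from 2.10 ± 1.06 to 8.66 ± 3.00 CPM and stood at 473 ± 73.0 and 489 ± 46.6 CPM in BAT. Ppargc1a, a coactivator of mitochondrial genes, rose in EFAT by 1.51 ± 0.42 with 0.79 ± 0.41 in BAT, and its difference did not pass. Dio2, which activates thyroid hormone, had a depot difference of -3.61 ± 1.27 without passing in either depot, and Elovl3 (-4.27 ± 2.75) and Cidea (0.32 ± 0.91) did not pass. In EFAT Dio2, Elovl3 and Cidea had at most 3.02, 0.186 and 2.14 CPM, and their spread was shared in the same way. Adrb3, the beta-3 adrenergic receptor of adipocytes, fell in both depots, by 0.74 ± 0.27 in EFAT and 1.82 ± 0.28 in BAT (depot difference 1.09 ± 0.38). Ckb, a creatine kinase linked to creatine cycling in brown fat, rose in BAT by 1.37 ± 0.34, with -0.04 ± 0.32 in EFAT.

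**Figure D4:**
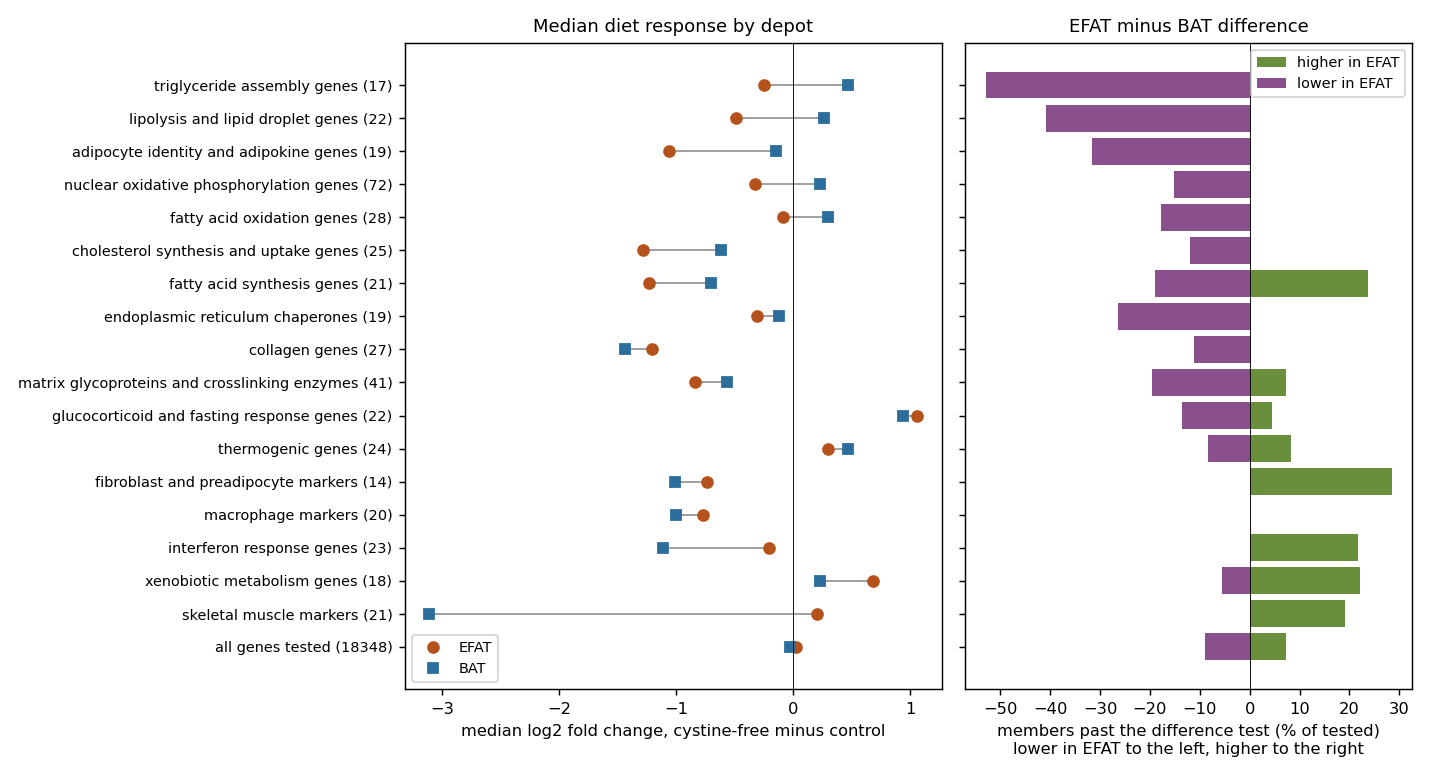
Left, median log2 diet response of each gene list in EFAT (circles) and BAT (squares), with the number of tested genes in brackets. Right, the share of each list past the depot difference test, lower in EFAT to the left and higher to the right, with all genes tested in the lowest row (8.93% and 7.29%).

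Glucose uptake and glycolysis were described by 19 genes. Of these insulin signalling and glucose uptake genes, 4 were lower (8.93% of all genes tested were) and 2 higher (7.29% of all) in the depot difference. These counts were 1 and 1 without EFAT libraries 12 and 14. Pfkfb3, the kinase that makes the main allosteric activator of glycolysis, had 959, 757, 869 and 769 CPM in EFAT control libraries and 399, 572, 488 and 365 CPM in cystine-free ones. BAT had 310, 506, 358 and 580 CPM and 649, 1030, 1140 and 947 CPM. The groups were apart in both depots and the directions opposite (-0.88 ± 0.25 in EFAT, 1.10 ± 0.25 in BAT). Slc2a4, the insulin-responsive glucose transporter, fell in EFAT by 1.12 ± 0.24, and Ldha, lactate dehydrogenase, by 1.47 ± 0.30, with BAT responses of 0.33 ± 0.24 and 0.60 ± 0.29. Pdk4, which shuts off the entry of pyruvate into oxidation, rose in EFAT: 27.0, 27.0, 29.1 and 20.9 CPM in EFAT controls became 77.6, 74.6, 173 and 158 CPM, while BAT had 1130, 2100, 1420 and 3680 CPM against 1970, 1270, 2410 and 2610 CPM.

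Of 19 adipocyte identity and adipokine genes, 6 were lower in the depot difference (8.93% of all genes tested were) and none higher. Without EFAT libraries 12 and 14, 3 were lower. There were 12 falls in EFAT (17.3% of all), against 4 falls (9.17% of all) and 1 rise in BAT. Cav1, the caveolin of adipocyte membranes, fell in EFAT from 2780 ± 491 to 626 ± 198 CPM and stood at 890 ± 64.9 and 703 ± 120 CPM in BAT (depot difference -1.81 ± 0.30). Lep, the gene of leptin, fell by 2.95 ± 0.58 in EFAT and fell by 3.76 ± 0.63 in BAT. Adipoq, the gene of adiponectin, had -0.27 ± 0.15 in EFAT and 0.32 ± 0.15 in BAT and did not pass (adjusted p = 0.053 for the difference). Npr3, the clearance receptor of natriuretic peptides, fell in EFAT from 1140 ± 301 to 123 ± 58.3 CPM, with 102 ± 36.3 and 120 ± 29.0 CPM in BAT (-3.46 ± 0.64).

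Of 27 collagen genes, 17 fell in EFAT (17.3% of all genes tested did), 15 fell in BAT (9.17% of all) and none rose. The depot difference passed for 3 (11.1%, against 16.2% of all genes), each lower in EFAT, and for none without EFAT libraries 12 and 14. With the muscle score 3 passed, and 14 fell in BAT. Col3a1, a fibrillar collagen, fell by 3.18 ± 0.25 in EFAT and 3.13 ± 0.26 in BAT, and Col1a1 by 1.99 ± 0.37 and 2.94 ± 0.39. The exceptions were the basement membrane pair Col4a1 and Col4a2, which fell in EFAT by 1.23 ± 0.22 and 1.05 ± 0.22, with -0.04 ± 0.21 and 0.02 ± 0.22 in BAT, and Col15a1, which fell in both, by 4.11 ± 0.32 in EFAT and 2.78 ± 0.31 in BAT.

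Among 41 matrix glycoproteins and crosslinking enzymes, 8 were lower (8.93% of all genes tested were) and 3 higher (7.29% of all) in the depot difference. These counts were 3 and 1 without EFAT libraries 12 and 14, and 4 and 1 with the muscle score. Loxl1, which crosslinks elastin, had 58.3, 57.2, 60.3 and 57.1 CPM in EFAT control libraries and 20.8, 15.0, 20.5 and 15.6 CPM in cystine-free ones. In BAT it had 19.3, 24.1, 23.8 and 23.7 CPM and 51.9, 37.0, 37.6 and 45.5 CPM. EFAT libraries were above BAT libraries on the control diet and below them on the cystine-free diet. The diets did not overlap within either depot, which the naming rule asks for. The response was -1.69 ± 0.20 in EFAT and 0.92 ± 0.20 in BAT (depot difference -2.61 ± 0.28, adjusted p = 1.0e-07, passing in all 31 alternatives). Thbs2, a secreted matricellular glycoprotein, went up in EFAT: from 18.2, 32.8, 14.1 and 19.5 CPM to 296, 205, 341 and 136 CPM, while BAT had 3.20, 7.75, 4.58 and 5.34 CPM and 4.22, 3.92, 5.79 and 4.51 CPM. The lowest cystine-free EFAT library lay above the highest control, and BAT did not separate (3.53 ± 0.38 against -0.21 ± 0.39, depot difference 3.74 ± 0.53). Thbs1 and Dcn, a proteoglycan of fibroblasts, were the other 2 higher genes (1.93 ± 0.60 and 0.90 ± 0.29). Of the proteases, Mmp11 rose in EFAT by 2.71 ± 0.28 (BAT 0.32 ± 0.30) and Adamts5 fell in EFAT by 2.69 ± 0.21 and in BAT by 0.68 ± 0.21.

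Cystine is taken up by the transporter that Slc7a11 encodes, and cysteine limits the making of glutathione. Slc7a11 had 0.916, 0.619, 1.04 and 1.35 CPM in EFAT control libraries and 2.25, 1.16, 0.970 and 6.30 CPM in cystine-free ones. Levels in BAT were 0.656, 0.0939, 3.18 and 0.156 CPM and 0.233, 0.0516, 0.0568 and 0.161 CPM. The groups overlapped in both depots, and EFAT library 20 and BAT library 14 were far above the rest. The fall in BAT passed (-2.87 ± 0.85) and the EFAT response of 1.44 ± 0.66 did not, and the depot difference was 4.31 ± 1.08 (adjusted p = 0.0057). Gclc, the catalytic subunit of the limiting enzyme of glutathione synthesis, had 26.5, 28.2, 24.3 and 36.5 CPM in EFAT control and 42.5, 64.6, 49.2 and 64.8 CPM in EFAT cystine-free libraries, which are apart. In BAT it had 40.1, 24.1, 39.3 and 28.4 CPM and 25.7, 22.9, 32.0 and 35.6 CPM (depot difference 1.12 ± 0.23). Gss, which completes glutathione, rose in BAT by 0.94 ± 0.21, with -0.06 ± 0.21 in EFAT. Across the 28 sulfur amino acid and glutathione genes 3 were higher (7.29% of all genes tested were) and 3 lower (8.93% of all) in the depot difference. These counts were 1 and 0 without EFAT libraries 12 and 14.

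Of 41 genes of the ATF4 and amino acid response, 5 were higher (7.29% of all genes tested were) and 6 lower (8.93% of all) in the depot difference. These counts were 1 and 2 without EFAT libraries 12 and 14. Atf4, the transcription factor that amino acid shortage induces, rose in BAT by 0.47 ± 0.15 with -0.23 ± 0.15 in EFAT (depot difference -0.70 ± 0.21). Slc1a5, a carrier of neutral amino acids, fell in EFAT by 0.76 ± 0.21 with 0.57 ± 0.21 in BAT. Slc7a6, an exchanger of cationic and neutral amino acids that is not on this list, fell in EFAT by 1.06 ± 0.17 and rose in BAT by 1.05 ± 0.17. Chac1, which degrades glutathione, rose in both depots (1.33 ± 0.29 in EFAT and 1.29 ± 0.33 in BAT). The stress hormones Fgf21 and Gdf15 had depot differences of -0.08 ± 0.91 and 1.15 ± 1.03 and Asns, asparagine synthetase, one of 0.32 ± 0.27, none of which passed. Ddit3 fell in EFAT by 0.62 ± 0.23, with a difference of -0.59 ± 0.33 that did not pass. Of 19 chaperones of the endoplasmic reticulum, 5 were lower in the depot difference (8.93% of all) and 2 without EFAT libraries 12 and 14. In EFAT 8 fell (17.3% of all), and in BAT 1 rose (5.71% of all). Hspa5, the main one, fell in EFAT from 303 ± 29.8 to 177 ± 19.0 CPM and stood at 311 ± 26.6 and 340 ± 43.9 CPM in BAT.

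Of 22 glucocorticoid and fasting response genes, 12 rose in EFAT (13.5% of all genes tested did) and 13 in BAT (5.71% of all). The depot difference passed for 4, a share (18.2%) near that of all genes (16.2%). When EFAT libraries 12 and 14 were left out, 7 rose in EFAT and 1 passed the depot difference. With the muscle score 7 rose in BAT and 1 passed the depot difference. Fkbp5, a feedback gene of the glucocorticoid receptor, rose in both and more in BAT: from 9.60, 10.8, 27.9 and 6.63 CPM to 69.1, 135, 132 and 110 CPM in BAT, and from 60.8, 103, 114 and 86.1 CPM to 188, 270, 282 and 291 CPM in EFAT. All 4 cystine-free libraries exceeded their controls in each depot, and the depot difference was -1.52 ± 0.49. Hsd11b1, which activates glucocorticoid inside cells, rose in BAT by 1.43 ± 0.15, with 0.34 ± 0.15 in EFAT. Klf9, another target of the receptor, rose by 1.13 ± 0.14 in EFAT and 0.97 ± 0.14 in BAT.

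A gene of drug metabolism moved in BAT. Cyp2b10, a cytochrome P450 that nuclear receptors induce, had 1.72, 2.25, 5.92 and 1.91 CPM in BAT control libraries and 136, 316, 181 and 267 CPM in cystine-free ones. In EFAT it had 0.916, 0.446, 0.468 and 0.814 CPM and 0.514, 0.750, 0.201 and 1.23 CPM. The BAT groups were far apart and EFAT showed no separation. The BAT response was 6.26 ± 0.53, the EFAT response 0.01 ± 0.59, and the depot difference of -6.25 ± 0.76 (adjusted p = 6.8e-07) passed in all 31 alternatives. The other 4 of 18 xenobiotic metabolism genes past the test were higher in EFAT (7.29% of all genes tested were), such as Ephx1, an epoxide hydrolase (1.32 ± 0.33). None of these 4 passed without EFAT libraries 12 and 14.

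Imprinted genes, which are expressed from 1 parental copy, held the largest positive depot difference among protein-coding genes that averaged 1 CPM or more in each depot and 5 CPM or more in either. Zim1, a maternally expressed zinc finger gene of the Peg3 cluster, had 1.33, 5.67, 0.957 and 5.21 CPM in EFAT control libraries and 47.1, 98.5, 93.1 and 93.6 CPM in cystine-free ones. In BAT it had 3.94, 5.21, 3.66 and 5.19 CPM and 4.62, 4.12, 4.88 and 4.18 CPM. The EFAT groups were apart and the BAT cystine-free libraries lay within the range of their controls. The responses were 4.66 ± 0.49 and -0.02 ± 0.46, and the depot difference of 4.68 ± 0.65 (adjusted p = 6.6e-06) passed in all 31 alternatives. Peg3, its neighbour, rose in both depots (2.80 ± 0.49 in EFAT and 1.53 ± 0.47 in BAT), and its difference did not pass. Of the 17 tested imprinted genes 3 were higher (7.29% of all genes tested were) and 2 lower (8.93% of all) in the depot difference. Ndn fell in EFAT by 1.69 ± 0.24 (BAT -0.19 ± 0.23), and Gnas, the stimulatory G protein subunit, rose in BAT by 0.80 ± 0.13 (EFAT -0.29 ± 0.13).

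Zim1 and Thbs2, which rose in EFAT and did not pass in BAT, have RefSeq start sites in the table used here, so the 250 bases before them are shown (GRCm38.p6, minus strand, 5′ to 3′). They lie at chr7:6696433-6696682 for Zim1 and chr17:14694263-14694512 for Thbs2. Capitals mark matches on either strand to any of 5 motifs.
Zim1: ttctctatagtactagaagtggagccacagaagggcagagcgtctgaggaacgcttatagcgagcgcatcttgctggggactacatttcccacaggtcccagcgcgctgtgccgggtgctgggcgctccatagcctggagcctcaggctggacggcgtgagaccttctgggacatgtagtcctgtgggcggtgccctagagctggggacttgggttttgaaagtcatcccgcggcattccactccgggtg
Thbs2: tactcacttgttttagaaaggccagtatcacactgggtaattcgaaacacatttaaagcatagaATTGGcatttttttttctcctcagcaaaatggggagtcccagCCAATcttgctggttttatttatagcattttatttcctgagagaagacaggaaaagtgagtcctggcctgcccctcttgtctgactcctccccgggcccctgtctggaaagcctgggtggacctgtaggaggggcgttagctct
The motifs were the sterol regulatory element TCACNCCAC (in 1.05% of 32851 promoters of this length), the cAMP response element TGACGTCA (1.55%), the E-box CACGTG (6.02%), the amino acid response element TGATGNAA (3.45%) and the CCAAT box, spelled CCAAT (33.8%). The Thbs2 window held 2 CCAAT boxes, the first letters of which are at -186 and -144 from the start, and the Zim1 window held none of the 5. A match is a run of letters and not a measured site.

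The rule that chose the largest differences without overlap named 10 that rose in EFAT and fell in BAT. Cgnl1, a protein of epithelial and endothelial junctions, had 94.5, 121, 95.9 and 108 CPM in EFAT control libraries and 169, 238, 224 and 232 CPM in cystine-free ones, and in BAT 275, 295, 296 and 331 CPM and 244, 228, 216 and 240 CPM. EFAT lay far below BAT on the control diet, and their ranges overlapped on the cystine-free diet. The depot difference was 1.41 ± 0.18 (adjusted p = 1.2e-06). Scly, selenocysteine lyase, had 13.6, 13.2, 10.8 and 12.4 CPM in EFAT controls and 20.3, 24.1, 21.7 and 24.5 CPM in cystine-free libraries, and in BAT 15.6, 12.2, 13.0 and 12.2 CPM and 11.2, 10.6, 9.60 and 9.25 CPM (1.23 ± 0.16). Here the depots had like levels on the control diet and separated on the cystine-free diet. Atp8a1, a phospholipid flippase, had a depot difference of 1.30 ± 0.19, and Rad18, a ubiquitin ligase of DNA damage tolerance, one of 1.81 ± 0.28. The others were Sbsn (2.24 ± 0.41), Fbxo36 (1.81 ± 0.36), Wbscr27 (1.69 ± 0.30), Zbtb12 (1.49 ± 0.27) and Fam129b (1.42 ± 0.24). Ldb3, a protein of the muscle Z-disc, had the largest difference (4.20 ± 0.87), with 14.1, 21.5, 5.01 and 14.7 CPM in BAT controls and 4.09, 1.44, 3.24 and 2.98 CPM in cystine-free BAT. Its BAT levels were highest and lowest in the same control libraries as the summed muscle genes given above, of which 14 of 21 fell in BAT, and the part of muscle in its fall was not tested.

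Of the 10 that fell in EFAT and rose in BAT, Lpl, Gpd1, Loxl1 and Slc7a6 are given above. Trim67, a ubiquitin ligase known from neurons, had 10.8, 10.7, 12.7 and 6.82 CPM in EFAT control libraries and 2.47, 2.66, 2.54 and 2.72 CPM in cystine-free ones, and in BAT 28.9, 29.4, 27.9 and 14.9 CPM and 65.5, 55.9, 48.5 and 44.4 CPM. All cystine-free libraries were on 1 side of their controls in each depot, as the rule asks. The depot difference of -3.07 ± 0.32 had the lowest adjusted p of the genes named (8.2e-08). Nnmt, which methylates nicotinamide, had 95.4, 71.1, 117 and 46.3 CPM in EFAT controls and 36.3, 17.7, 17.2 and 14.1 CPM in cystine-free libraries, and in BAT 3.12, 7.00, 3.66 and 5.15 CPM and 7.21, 7.53, 16.1 and 12.0 CPM (-3.09 ± 0.47). In BAT the gap between the groups was narrow, from 7.00 to 7.21 CPM. The others were Orm3 (-3.81 ± 0.62), an acute-phase gene with near-identical family members, Syt12 (-2.74 ± 0.42), Adam12 (-2.22 ± 0.38), a metalloprotease, and Gpc1 (-2.20 ± 0.40), a heparan sulfate proteoglycan.

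Further large differences came mainly from EFAT. Rassf6 rose in EFAT from 0.553 ± 0.388 to 6.71 ± 2.18 CPM and stood at 14.3 ± 2.73 and 13.4 ± 2.95 CPM in BAT (3.70 ± 0.53). Gys2, a glycogen synthase, fell in EFAT by 2.78 ± 0.50 (BAT 0.55 ± 0.44), Clstn3 by 2.78 ± 0.42 (BAT 0.36 ± 0.37) and Odf3l1 fell by 4.54 ± 0.56 (BAT -1.10 ± 0.43). In BAT Gys2 had 111, 123, 95.9 and 107 CPM on the control diet and 167, 166, 157 and 150 CPM on the cystine-free diet, without overlap. Odf3l1 had 20.2, 11.1, 16.1 and 8.82 CPM against 5.98, 8.15, 5.68 and 6.27 CPM there, also without overlap. The SEs in BAT rest on the spread over all 48 libraries, not on BAT alone. Teddm2 rose in EFAT, from 0.618, 1.41, 0.957 and 2.63 CPM to 37.2, 4.30, 5.35 and 82.3 CPM. Its 2 high values were in libraries 16 and 20, those with the most epididymal RNA, and its depot difference of 3.73 ± 0.95 was 0.98 without them and no longer passed.

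Interferon response genes fell in BAT for 13 of 23 (9.17% of all genes tested did) and in EFAT for 2 (17.3% of all). In the depot difference 5 were higher (7.29% of all) and none lower. Oasl2 fell in BAT from 7.66 ± 1.48 to 2.73 ± 0.284 CPM with 14.8 ± 3.31 and 18.2 ± 3.75 CPM in EFAT, and Rsad2, an antiviral enzyme, rose in EFAT by 1.27 ± 0.31 (BAT -0.25 ± 0.31). None of the 23 passed the difference without EFAT libraries 12 and 14. With the muscle score 9 passed it, and 17 fell in BAT. Of 20 macrophage markers, 9 fell in EFAT (17.3% of all genes tested did) and 14 in BAT (9.17% of all), and none passed the difference. With the muscle score 6 of these markers fell in BAT. Their summed level went from 1080 to 1200 CPM in EFAT controls to 627 to 891 CPM, and from 164 to 239 CPM in BAT controls to 102 to 125 CPM. Of 14 fibroblast and preadipocyte markers, 8 fell (17.3% of all) and 1 rose in EFAT and 10 fell in BAT (9.17% of all). Their medians were -0.74 in EFAT and -1.01 in BAT. In EFAT the gene that rose was Dcn, by 0.71 ± 0.20, and Sema3c fell by 1.13 ± 0.26. Of the 14, 4 were higher in the depot difference (7.29% of all): Dpp4 (1.71 ± 0.50), Thy1 (1.62 ± 0.46), Sema3c (1.09 ± 0.39) and Dcn. Of these, Sema3c alone passed without EFAT libraries 12 and 14. With the muscle score none of the 14 passed, and 5 fell in BAT. The summed level of the 14 was 1560 to 1800 CPM in EFAT controls and 1800 to 2050 CPM in cystine-free EFAT, and 447 to 489 CPM against 319 to 363 CPM in BAT. Dcn alone had 733, 952, 838 and 1010 CPM in EFAT controls and 1300, 1620, 1340 and 1530 CPM in cystine-free EFAT. Of 12 B cell markers, 1 passed in either depot and in the depot difference (8.33%, against 16.2% of all genes). This was Ighm, the immunoglobulin heavy chain, which fell in both depots, in EFAT with 729 and 710 CPM in control libraries 12 and 14, 227 and 146 CPM in 13 and 15, and 25.9 to 32.4 CPM in the cystine-free ones. Of 21 skeletal muscle genes, 14 fell in BAT (9.17% of all) and none passed in EFAT. In the depot difference 4 were higher (7.29% of all), none of them without EFAT libraries 12 and 14.

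The same contrast in mice that have the enzyme gave few calls. In Cth+/+ mice 0 of 18348 genes passed by edgeR, with 970 at an unadjusted p under 0.05, and DESeq2 called 18. The difference of the depot differences between genotypes passed for 760 genes (4.14%). It passed for 113 without EFAT libraries 12 and 14, for 52 with the library set as a term and for 5 within the libraries under 0.1 CPM of Gm43512. In EFAT of Cth+/+ mice, control libraries 1, 2 and 4 had at least 0.1 CPM of Gm43512, and no cystine-free library had. In EFAT of Cth-/- mice the set lay mostly with the cystine-free diet instead. Genotype and set can therefore not be fully told apart in this comparison. Most genes given next were named for a large depot difference in Cth-/- mice. That difference is a term of the genotype difference, so a large value for them is no separate evidence. Trim67 had 0.28 ± 0.31 in Cth+/+ mice against -3.07 ± 0.32 (genotype difference -3.35 ± 0.45, adjusted p = 7.0e-05), Cgnl1 -0.29 ± 0.18 against 1.41 ± 0.18 (1.70 ± 0.25), and Loxl1 -0.00 ± 0.27 against -2.61 ± 0.28 (-2.61 ± 0.39). Dgat2 had 0.08 ± 0.51 in Cth+/+ mice (genotype difference -4.40 ± 0.74), Thbs2 -0.79 ± 0.52 (4.53 ± 0.74), Zim1 -0.09 ± 0.71 (4.77 ± 0.95), Acsm3 -0.13 ± 0.52 (3.94 ± 0.73) and Cyp2b10 -0.45 ± 0.73 (-5.79 ± 1.05), each past the test. Lpl and Gpd1 passed as well (-1.76 ± 0.43 and -2.08 ± 0.59). Pfkfb3 was unlike them: its depot difference was -1.61 ± 0.36 in Cth+/+ and -1.98 ± 0.36 in Cth-/- mice, and the genotypes differed by -0.37 ± 0.50 (adjusted p = 0.70).

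**Figure D5:**
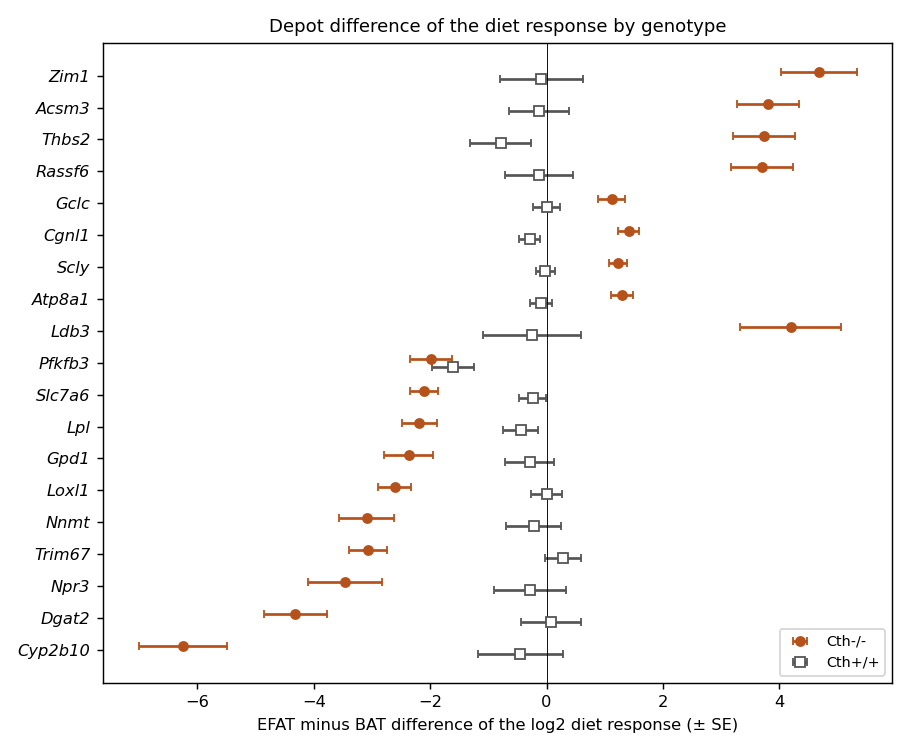
Depot difference of the log2 diet response (EFAT minus BAT, ± SE, 4 libraries per group) of 19 genes in Cth-/- mice (filled circles) and Cth+/+ mice (open squares). The Cth+/+ values lie near 0 for most genes, whereas Pfkfb3 has -1.61 and -1.98. Most of the genes were named for their depot difference in Cth-/- mice.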

How the data were processed

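The deposited table gives expected counts per gene, estimated by the authors with RSEM and aligned with STAR to mm10, with FastQC and Picard for quality control, per the submitters' processing notes; the sources used here give no versions. Expected counts were rounded, scaled by TMM and fitted with edgeR 4.0.16 (R 4.3.3): quasi-likelihood F-test, 48 libraries in 12 groups, filterByExpr with a minimum count of 10, Benjamini-Hochberg adjustment over 18348 genes. The 48 libraries share 1 estimate of the spread with 36 residual degrees of freedom. An SE is the absolute log2 fold change divided by the square root of F. CPM values use TMM-scaled library sizes. The fit was tested on simulated data with known changes.

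Named genes were 26 chosen genes, the largest opposite differences without overlap of the diets in either depot, and the largest overall differences. Both kinds of difference had at least 1 CPM in each depot, with predicted genes left out. Each list added up to 4 members past the test and 3 with the highest level that were not. Outside this rule, Agpat1, Agpat3, Gpat4, Dgat1 and Plin1 were chosen after their values were seen. Members and lists were chosen with earlier results of these data known. Motifs were searched in RefSeq promoters of GRCm38.p6. Genes whose names had been turned into dates in the table are not named. Some results that the naming rule covers are not reported here. Alternatives were DESeq2 1.42.0, other scalings, filters, covariates and subsets of libraries. Libraries 12 and 14 and libraries 16 and 20 of EFAT were left out after the data were seen.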

Additional observations from a re-analysis of the deposited data

Results flagged for a closer look

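The depot difference passed for 2976 genes, and 760 genes differed in it between the genotypes. Single libraries far from the other 3 of their group were looked for in 108 groups of 4, of which chance alone gives about 1 in 20, and 10 were found. In BAT, control library 12 had 19.3 CPM of Loxl1 where the others had 23.7 to 24.1, control library 15 had 14.9 CPM of Trim67 (others 27.9 to 29.4), control library 14 had 5.92 CPM of Cyp2b10 (others 1.72 to 2.25), and cystine-free library 20 had 8.45 CPM of Teddm2 (others 2.73 to 3.22) and a mitochondrial share of 37.5% (others 25.5 to 26.9%). In EFAT, cystine-free library 16 had 36.3 CPM of Nnmt (others 14.1 to 17.7) and 47.1 CPM of Zim1 (others 93.1 to 98.5). Ucp1 in EFAT was 2.84 CPM in control library 15 (others 0.0213 to 0.173) and 1.09 CPM in cystine-free library 17 (others 0.0669 to 0.171). The summed muscle markers of EFAT control library 12 were 50.3 CPM (others 22.3 to 22.6).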

How the results depend on the processing

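All 2976 genes kept their sign with RLE size factors (3055 passed), TMM within each depot (2926) and DESeq2 (3581). These settings refit the same counts in which the genes were chosen, so kept signs are no separate evidence. Of the 2976 genes, 35 passed in each of the 31 alternatives, 13 of them opposite. Counts of the depot difference, of opposite genes and of genes that differ between genotypes were 1949, 106 and 304 without the low-count filter, 1753, 117 and 52 when the library set was a term, 1422, 67 and 262 with a muscle score and 1337, 80 and 244 with an epididymal score. They were 315, 19 and 5 in libraries under 0.1 CPM of Gm43512 (set A), and 132 and 13 in the others (set B). Without EFAT libraries 12 and 14 they were 588, 41 and 113, and without 16 and 20 the opposite genes were 115; with the 16 Cth-/- libraries alone they were 116. Calls in EFAT were 1173 in set A, 718 in set B, 3185 with the epididymal score and 1705 without libraries 12 and 14; calls in BAT were 1026, 1058 and, with the muscle score, 1124. DESeq2 called 18 genes in Cth+/+ mice and 1494 between genotypes. Leaving out 1 library gave 1695 to 3960 genes for the depot difference, 104 to 264 opposite, 3729 to 6438 in EFAT, 1811 to 2749 in BAT, 0 to 0 in Cth+/+ mice and 290 to 1525 between genotypes. The depot difference was lowest without EFAT libraries 12 (1695), 14 (1767) and 20 (1863). The cause of these changes was not tested.

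Replicate numbers are shared between depots, but only 6 of 16 same-number pairs correlated above 0.1 (-0.11 to 0.27) and 5 of 16 libraries correlated best with their own number, so the numbers were not taken to pair the libraries. With the replicate block 4231 genes passed the depot difference, 1 in Cth+/+ mice and 2100 between genotypes; opposite genes could not be counted in that fit.

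The sign of the depot difference turned for genes that had not passed, and in set B for some that had. In set A it was 0.25 for Ucp1, -0.01 for Cidea, -0.18 for Lep, -0.86 for Asns, -0.34 for Chac1, 0.28 for Col3a1 and -0.22 for Klf9. In set B it was -0.32 for Cidea, -0.05 for Ppargc1a, 2.98 for Fgf21, -0.12 for Gdf15, 0.05 for Lipe, -0.21 for Scd1, -0.42 for Acot3, 1.69 for Angptl8, 0.54 for Acly, 0.17 for Thrsp, 0.09 for Acaca, 1.37 for Insig1 and -0.03 for Peg3. Without EFAT libraries 12 and 14 it was -0.02 for Cidea, 0.10 for Acaca and 0.73 for Insig1. Fgf21 had 0.33 with the muscle score, 0.35 with the epididymal score and 0.60 without EFAT libraries 16 and 20, Chac1 -0.27 with the muscle score and -0.01 with the replicate block, and Insig1 0.42 with the epididymal score. Leaving out 1 library gave -3.67 to 1.06 for Ucp1 (the latter without EFAT library 15), -0.82 to 0.28 for Fgf21, -0.26 to 0.22 for Chac1, -0.57 to 0.15 for Insig1 and -0.14 to 0.06 for Col3a1. Low counts limit Fgf21, Gdf15 and, in EFAT, Ucp1.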
